A study of Spodoptera frugiperda with 8 samples.

Results

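The susceptible SUS strain of the fall armyworm, Spodoptera frugiperda, is the reference to which the resistant strains of the study were compared, and its own signal on the arrays is described here without any strain contrast. The SUS channel was 1 of the 2 dye channels on each of 8 arrays, so 8 of 16 channels in all belonged to it, and these came from 4 RNA pools of 5 whole larvae each, taken at the second larval instar. SUS larvae had been reared in the laboratory for many generations without insecticide. The partner channels held the OP strain, selected with the organophosphate chlorpyrifos, on 4 arrays, and the PYR strain, selected with the pyrethroid lambda-cyhalothrin, on the other 4. The arrays lay on 1 slide, with the OP strain as partner in one row (the OP row) and the PYR strain as partner in the other (the PYR row), so the row and the partner cannot be told apart. Each SUS pool was hybridised once in each row and always with the same dye, pools 1 and 3 with Cy5 and pools 2 and 4 with Cy3, so that each pool has a repeat measurement but dye and pool pair cannot be told apart. The replicate here is the pool (n = 4), and the arrays of a pool are repeat hybridisations of it. A pool hides the differences between its larvae, and in a whole larva fewer cells of a tissue and less RNA per cell cannot be told apart.

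The array is a custom oligonucleotide design built on expressed sequence tags (ESTs) of S. frugiperda, together with probes for the families that metabolise insecticides. Cytochrome P450s oxidise foreign compounds, carboxylesterases cleave or bind ester insecticides, and glutathione S-transferases (GSTs) join them to glutathione. In a feeding caterpillar the midgut secretes trypsins and chymotrypsins, the fat body makes hemolymph proteins such as the apolipophorins, the epidermis lays down cuticle proteins, and hemocytes and fat body supply antimicrobial peptides, lysozymes and the prophenoloxidases that start melanin synthesis. Of the 13808 probes, 7530 carry only an EST name, 6232 carry the leading word of a protein name and 46 carry neither. Probes are therefore given by that word, and 1592 of them fall into 24 lists defined by such words. A probe's brightness also depends on its own sequence, so the order of probes is an order of signal and not of transcript number.

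A probe was counted as detected on an array where the scanner software marked its SUS signal as well above background. Between 4624 and 7237 probes were detected per array (median 5802), whereas 5 of the 616 negative control spots were, summed over the 8 arrays. Pools 1 and 2 had the fewest, at 5387 probes in the OP row and 4624 in the PYR row for pool 1, and 5119 and 4911 for pool 2. Pool 3 had 6216 in the OP row and 6421 in the PYR row, and pool 4 had 6699 and 7237. The repeat arrays of a pool thus lay closer to each other than to most arrays of other pools. The partner was much brighter than SUS on 3 arrays: over the probes detected throughout, the ratio of partner to SUS median signal was 20.3 for pool 1 and 8.75 for pool 2 in the OP row and 11.4 for pool 2 in the PYR row. On the other 5 arrays this ratio lay between 0.667 and 1.19.

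**Figure D1:**
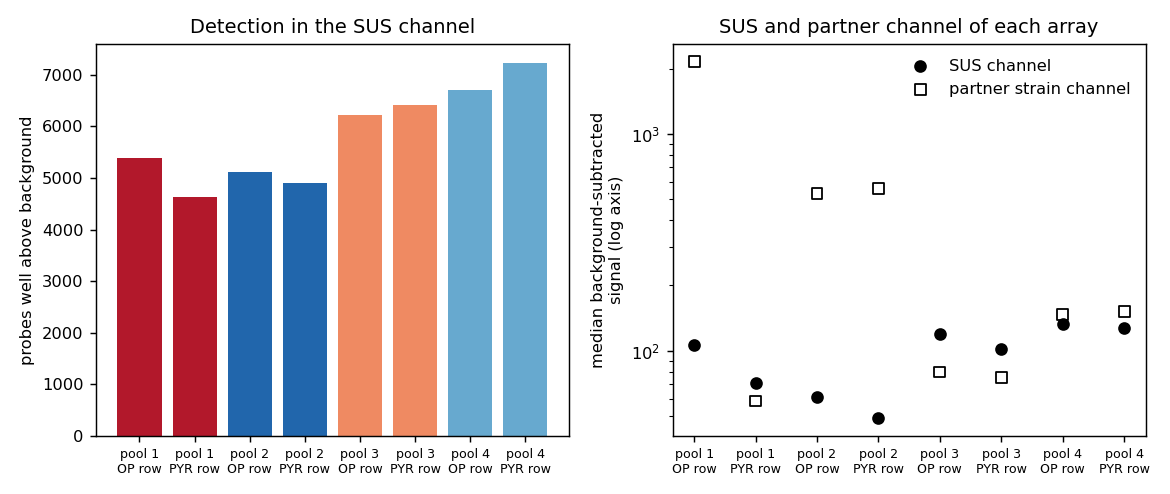
Probes detected in the SUS channel of each array (bars, number of probes, of 13808) and the median signal of the SUS and the partner channel on the same array (points, log axis). Pools 3 and 4 gave more detected probes than pools 1 and 2 in both rows, and the partner was 20.3 times as bright as SUS beside pool 1 in the OP row.

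Across all 8 SUS channels, 3569 probes (25.8%) were detected every time, 5731 (41.5%) never, and 4508 on 1 to 7 arrays. Among these 4508, 557 probes were detected wherever an unflagged spot was left but lacked a value on at least 1 array. All their spots there were marked as outliers and left out. Both arrays of a pool detected 4331 probes in pool 1, 4610 in pool 2, 5923 in pool 3 and 6460 in pool 4. Among probes with an unflagged value on every array, 328 were detected on both arrays of pool 4 and nowhere else, against 43 for pool 3, 11 for pool 1 and 0 for pool 2. Conversely, 229 were missing only from pool 1 and 108 only from pool 2, against 7 for pool 3 and 4 for pool 4. Pools 1 and 2 were thus the dim pair in both directions of this count. The 3 arrays with a bright partner all belonged to them, although beside pool 1 in the PYR row the partner was no brighter than SUS (ratio 0.825). The part of the partner in these counts was not tested.

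Detection differed widely between groups of probes. The machinery of protein synthesis and the trypsins and chymotrypsins were detected more often than most probes. Elongation factors, which carry the ribosome through translation, were detected on all 8 arrays by 9 of 12 probes, ribosomal proteins by 74 probes (69.2% of the list) and trypsins and chymotrypsins by 81 of 134 (60.4%), against 25.8% of all probes. Cuticle proteins followed with 13 of 25 probes, cytoskeletal and muscle proteins with 21 of 41, antimicrobial effectors with 22 of 47 and proteasome subunits with 14 of 34. Genes of midgut, epidermis, muscle and the immune system were thus all detected in these whole larvae. The other digestive lists were lower, with 9 of 39 carboxypeptidase and aminopeptidase probes and 4 of 28 lipase and amylase probes. The lists were described and not tested.

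Of the families that metabolise insecticides, GSTs were the most often detected. Of 312 GST probes, 94 (30.1%) were detected on all 8 arrays and 98 on none. For cytochrome P450s these numbers were 17 of 324 (5.25%) and 214 (66.0%), and for carboxylesterases 15 of 135 (11.1%) and 76. UDP-glycosyltransferases, which attach sugars to foreign compounds, had 4 of 15 on all 8 arrays, and the ABC transporters, which export compounds from cells, had 0 of 15 there and 12 on none. The share of P450 probes with signal on every array was thus below that of all probes, and that of GST probes near it.

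The hemolymph and storage protein list stood as low as the P450s. Of its 68 probes, 6 were detected on all 8 arrays and 45 on none. The probes for arylphorin, a storage protein that fat body accumulates late in larval life, did not share a level. The control-gene probe (CUST_6_PI426925815, 10 spots) was detected on 0 of 8 arrays, whereas CUST_8232 and CUST_8236 were detected on all 8 and ranked 4286 and 4436 of the 13799 probes that could be ranked.

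**Figure D2:**
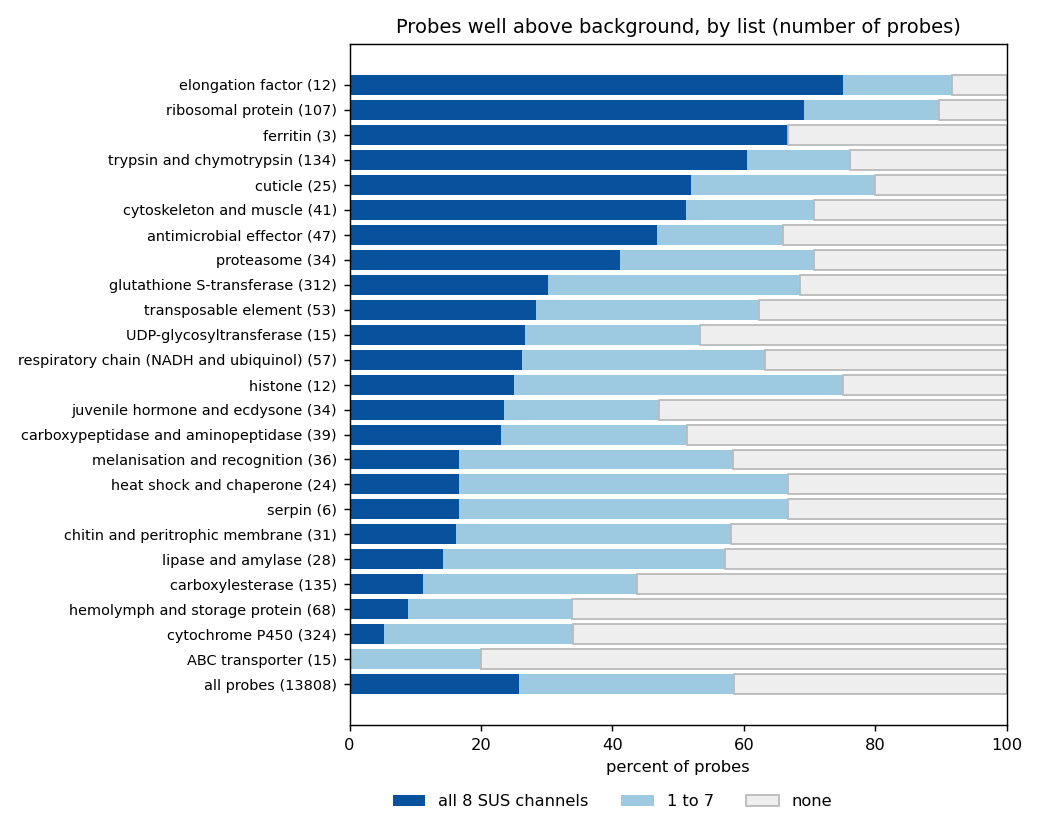
Share of the probes of each list detected in the SUS channel on all 8, on 1 to 7 and on 0 arrays (stacked bars, percent of the list's probes). Elongation factors and ribosomal proteins have the largest share on all 8 arrays, and the ABC transporters, the hemolymph proteins and the P450s the largest share on none.

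An EST name begins with the code of a cDNA library. Where a probe was made to an assembled contig, only the library of the EST in its name is known. Probes with a protein name are not covered. Of 1340 probes to ESTs of Sf9 cells, an S. frugiperda cell line, 49.1% were detected on all 8 arrays, against 39.2% of 989 fat body, 30.4% of 428 midgut, 30.0% of 659 hemocyte and 23.6% of 3088 mixed-tissue probes. ESTs from animals or cells that had been challenged gave fewer, with 17.1% of 574 probes from immune-challenged hemocytes and 16.2% of 407 from midguts exposed to xenobiotics. The cell line Sf21, with 17.8% of only 45 probes, was as low as these. No library list was tested.

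Signal is given below as scaled log2 signal: the log2 of the processed signal minus the 75th percentile of it on that array, taken over the 3569 probes detected on all 8. A value of 0 is thus a probe at that percentile, and a step of 1 is a doubling. Levels are means over the 4 pools with the SD over pools. The signal was concentrated in few probes. The 10 brightest probes of an array carried between 5.94% and 15.3% of its summed signal, and the 100 brightest between 32.1% and 49.7%.

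The brightest probe was CUST_58, an Sf9 EST contig without a protein name, at 7.12 ± 0.52 (SD, n = 4), followed by CUST_4553 at 7.10 ± 0.36, CUST_84 at 7.08 ± 0.52, CUST_6316 at 7.05 ± 0.62 and CUST_82 at 6.87 ± 1.00. These 5 differed by less than their spread over pools, so their order is not resolved. They were saturated on 5 to 7 of the 8 arrays, and their levels are lower bounds there. Of the 10 brightest, 6 had the name of an Sf9 EST, and 4 of these were named for a single cluster of related ESTs, SF9L00001. That cluster had 125 probes on the array, of which 7 were among the 100 brightest and 82 were detected on all 8 arrays, but its probes ranged down to −8.41, so probes of one cluster did not share a level.

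CUST_8978, a cuticle protein probe, was the brightest that names a protein. Its scaled log2 signal was 5.28, 6.53, 6.65 and 6.76 in pools 1 to 4 in the OP row and 6.999, 6.12, 6.43 and 6.89 in the PYR row. Cuticle proteins form the chitin-bound exoskeleton that each instar makes anew. The mean over pools was 6.46 ± 0.29, and the low value was that of pool 1 in the OP row.

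Among the 100 brightest probes 31 had a descriptive name, of which 17 were ribosomal proteins, 2 cuticle proteins and 1 a cytoskeletal protein. A further 51 had the name of an Sf9 EST. All 100 were detected on every array on which an unflagged spot was left, and 70 on all 8. CUST_7659 (60s) at 5.90 ± 0.63, CUST_7650 (40s) at 5.89 ± 0.46, CUST_11658 at 5.71 ± 0.58 and CUST_11674 at 5.70 ± 0.28 led the ribosomal proteins, which build the small and the large ribosomal subunit. Their neighbours in this order differed by less than the spread over pools. CUST_9157 at 6.01 ± 0.65 and CUST_9159 at 5.78 ± 0.48 have names that begin with cytochrome, and the array does not say which cytochrome.

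The actin control-gene probe, CUST_3_PI426925815, with 10 spots per array, stood at 5.83 ± 1.21. Actin forms the thin filaments of muscle and the cell cortex. Its scaled log2 signal was 3.50, 5.30, 6.81 and 6.84 in pools 1 to 4 in the OP row and 5.16, 5.45, 6.51 and 7.06 in the PYR row. Pools 3 and 4 were above pools 1 and 2 in both rows, without overlap between these pairs. It was saturated on 3 of 8 arrays, so its SD over pools is not exact.

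Below these, each tissue list had its own leading probes. The trypsin CUST_12507 led the digestive enzymes at 3.40 ± 0.90, with 5.001, 4.40, 3.44 and 2.16 in pools 1 to 4 in the OP row and 3.09, 3.63, 3.39 and 2.09 in the PYR row. Pool 4 was low in both rows, and pool 1 was above pool 3 only in the OP row. The myosin probe CUST_10840, the motor of muscle, was at 4.60 ± 1.28, with pool means of 3.18, 3.90, 5.36 and 5.96. The myosin probes did not share a level: the control-gene probe CUST_15_PI426925815 (10 spots) was detected on 0 of 8 arrays, at −7.88. An apolipophorin probe, CUST_8176 (aplp_manse), was at 2.54 ± 0.47, and CUST_8180 (apolipophorin-iii) at 2.11 ± 0.68. Apolipophorins carry lipid through the hemolymph.

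Among the immune effectors, 2 lysozyme probes led at 2.72 ± 0.94 (CUST_10562) and 2.71 ± 0.90 (CUST_10556), each low only in pool 4, and the diapausin probe CUST_9324 stood at 0.37 ± 0.78. Lysozymes cleave bacterial cell walls, and diapausins are small cysteine-rich antifungal peptides. Of the melanisation list, the prophenoloxidase probe CUST_11360 was the brightest at 0.16 ± 0.70.

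Among the families that metabolise insecticides, the brightest GSTs were 3 probes of 1 EST contig named GST epsilon 3 in the study's annotation, CUST_264_PI426916783 at 2.91 ± 0.70, CUST_262_PI426916783 at 2.75 ± 0.33 and CUST_263_PI426916783 at 2.71 ± 0.38, with ranks 322, 342 and 351 of 13799. All 3 were highest in pool 1. The brightest P450 probe, CUST_625_PI426916783, stood at 1.71 ± 0.20 with rank 524, the brightest UDP-glycosyltransferase, CUST_12704, at −0.59 ± 0.46 with rank 1289, and the brightest carboxylesterase, CUST_42_PI426916783, at −1.05 ± 0.55 with rank 1542. These ranks order probes by brightness and not genes by level. How far brightness depends on the probe can be read from contigs with several probes. In 7 contigs of GSTs and P450s with 16 probes detected on all 8 arrays, the brightest and the dimmest probe of a contig differed by a median of 0.63 on the log2 scale, with a range of 0.04 to 2.70.

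The ESTs that the study's text singles out were mostly dim in the SUS channel. The study picked them for a higher signal in a resistant strain than in SUS on these same arrays. That choice favours a low SUS signal, so their dimness is no independent finding. Both probes of the P450 EST Sf2M09131 were detected on 0 arrays, at mean scaled log2 signals of −7.33 and −7.29. The esterase EST Sf1P09555 had 2 probes, detected on 0 and 4 arrays. Of 18 probes to Sf1F00968, a sigma GST, 5 were detected on all 8 arrays and 3 on none, and the brightest ranked 1912. The epsilon GST Sf2M00801 had 1 of 2 probes on all 8 arrays, at −1.59. These values are brightness at dim probes and set no level of one gene against another.

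Each array was more like the repeat array of its pool than any array of another pool. Over the 3569 probes, Pearson's r between the OP-row and PYR-row arrays of a pool was 0.946 for pool 1, 0.992 for pool 2, 0.997 for pool 3 and 0.998 for pool 4. Between pools that carried the same dye it was 0.885 to 0.954, and between pools that carried different dyes 0.868 to 0.957. The 0.946 of pool 1 lay within these ranges. With arrays of other pools, however, those of pool 1 reached at most 0.913 (OP row) and 0.926 (PYR row). Leaving pool 1 out, these ranges were 0.946 to 0.954 and 0.945 to 0.957. Pools that shared a dye were thus no more alike than pools that did not. These coefficients run across probes, which are not independent replicates.

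Pool 1 stood apart in its OP-row array. The SD of the difference between rows, OP row minus PYR row, was 0.75 on the log2 scale in pool 1, against 0.32, 0.20 and 0.18 in pools 2, 3 and 4. In pool 1, 460 probes (12.9%) differed by more than 2-fold between its arrays, against 61, 14 and 10. More than 4-fold differences were seen for 102 probes, of which 73 were higher in the OP row. The partner channel on that array was brighter by a factor of 20.3 than SUS, and the row difference of SUS correlated across probes with that of the partner at r = 0.41 in pool 1, against 0.30, 0.09 and 0.20 in pools 2, 3 and 4.

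At those 73 probes the partner's median signal was 21104 in the OP row and 72.1 in the PYR row, against 2150 and 58.7 over all 3569 probes. They were 2.05% of all 3569 probes and included 13 of 81 trypsins and chymotrypsins (16%), 2 of 9 carboxypeptidases and aminopeptidases, 2 of 13 cuticle proteins, 1 of 22 antimicrobial probes and 1 of 94 GSTs (1.06%). The trypsin-like probe CUST_12538, for instance, had a scaled log2 signal in SUS of 3.64 in the OP row and −2.44 in the PYR row in pool 1, a difference of 6.08. The same probe stood at 2.52 and 0.58 in pool 2, −1.35 and −1.31 in pool 3 and −2.16 and −2.13 in pool 4, and its 3 highest values were those of the 3 arrays with a bright partner. Bright probes were lower on that array: the median ribosomal probe of pool 1 stood at 2.12 in the OP row and 2.93 in the PYR row, against 2.93 and 2.997 in pool 2, 3.37 and 3.34 in pool 3 and 3.40 and 3.29 in pool 4. The part of the partner channel in these differences was not tested. For the contrast that uses pool 1, list counts or medians are given with and without this array, but most single probes only with it.

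**Figure D3:**
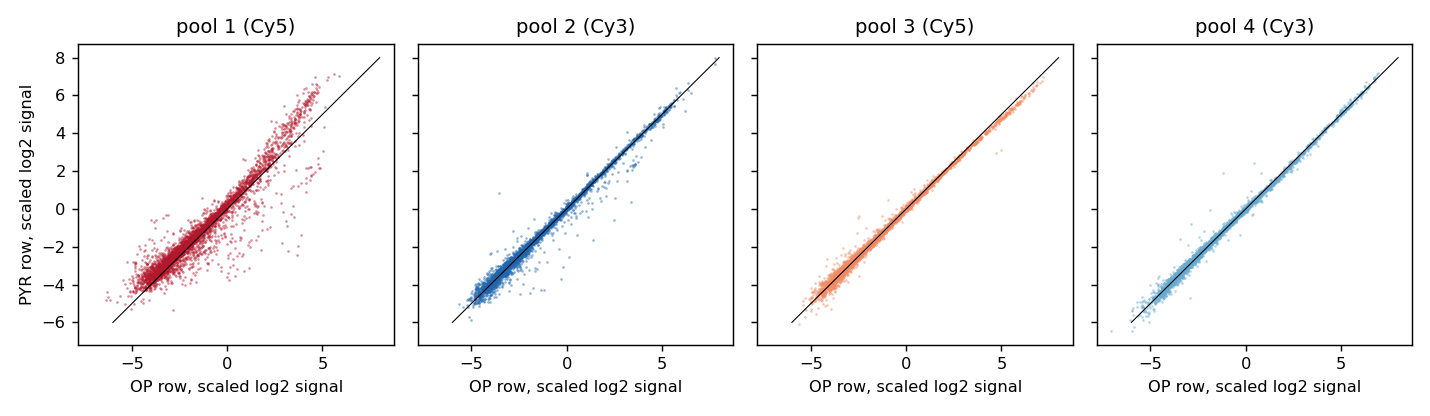
Scaled log2 signal of the 3569 probes detected on all 8 SUS channels in the OP row (x axis) against the PYR row (y axis), with a panel for each pool and a point for each probe. Points lie close to the diagonal in pools 3 and 4 (r = 0.997 and 0.998) and scatter widely in pool 1 (r = 0.946).

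Over all pools, no probe was called between the rows. With limma and Benjamini-Hochberg adjustment over 3569 probes, 0 probes (0%) were called for OP row minus PYR row at adjusted p under 0.01 and more than 2-fold. In this fit 1 probe had an unadjusted p under 0.05. The fit did not pair the arrays of a pool, so the spread between pools entered its error and could hide row differences. With the pool as a replicate block in limma, 0 probes were called and 110 had an unadjusted p under 0.05. Cy5 pools minus Cy3 pools, a difference between 2 and 2 pools, also gave 0 calls (0%) in limma, with 139 probes at an unadjusted p under 0.05.

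Variation between pools was then described by the SD over the 4 pools. The median probe had an SD of 0.42 on the log2 scale over all pools and 0.33 over pools 2 to 4, against a median SD of 0.15 between the arrays of a pool. An SD above 1 was found for 307 of the 3569 probes (8.6%). In 149 of these pool 1 lay farthest from the others (66 times high and 83 times low), in 81 pool 4, in 56 pool 3 and in 21 pool 2. Without pool 1, 195 probes had an SD above 1.

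Trypsins and chymotrypsins and P450s varied more than most probes. The trypsin and chymotrypsin list had a median SD over pools of 0.72, with 18 of 81 probes (22.2%) above 1, against 8.6% of all probes. Its median scaled log2 signal was −0.34 in pool 1, −1.35 in pool 2, −1.12 in pool 3 and −1.91 in pool 4, and in pool 1 it stood at −0.19 in the OP row and −0.90 in the PYR row. The P450s had a median SD of 0.59 with 6 of 17 (35.3%) above 1, and these 17 are the few of 324 detected on all 8 arrays. Their median was −2.03, −1.64, −3.59 and −1.14 in pools 1 to 4, so pool 3 was the low pool on both of its arrays (−3.40 and −3.48). Over pools 2 to 4 alone, the median SD was 0.61 for the trypsins and chymotrypsins and 0.54 for the P450s, against 0.33 for all probes. Both arrays of pool 2 had a bright partner, and its part in this spread was not tested. Cytoskeletal and muscle proteins had a median SD of 0.65 with 4 of 21 above 1, but 0.35 over pools 2 to 4, so their spread rested on pool 1. Ribosomal proteins (0.44, 3 of 74 above 1), GSTs (0.42, 6 of 94) and proteasome subunits (0.38, 1 of 14) lay near the 0.42 of all probes, and elongation factors were at 0.33 with 0 of 9 above 1.

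The most variable probes split pool 1 from the rest or grouped the pools in pairs. CUST_718, an Sf9 EST, was at −3.26, 4.21, 5.18 and 4.93 in pools 1 to 4 in the OP row and −2.40, 4.25, 4.93 and 4.98 in the PYR row. CUST_12765, named unknown, had pool means of −1.90, 4.92, 5.82 and 5.63. The ribosomal probe CUST_11696 had pool means of −0.58, 4.60, 5.18 and 5.60. In all 3 pool 1 was low in both rows, without overlap. CUST_11696 was an exception among ribosomal probes, since only 3 of 74 had an SD above 1.

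A GST probe, CUST_187_PI426916783, also fell out in pool 1 only, at −3.47, 1.011, 1.08 and 0.38 in pools 1 to 4 in the OP row and −3.74, 1.12, 1.06 and 0.38 in the PYR row. Of the neighbouring GST probes on the design, CUST_186_PI426916783 was low in pools 1 and 2, with pool means of −5.02, −5.60, −2.83 and −3.85 and detection on 6 of 8 arrays. CUST_188_PI426916783 and CUST_189_PI426916783 were not set apart in pool 1, at pool means of −1.29, −0.82, −0.48 and −1.30 for CUST_188_PI426916783 and 1.07, 1.25, 1.503 and 0.96 for CUST_189_PI426916783. Whether they belong to the same transcript was not given. The prophenoloxidase probe CUST_11372 was high in pool 1 instead, with pool means of 0.96, −3.65, −2.32 and −2.86.

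CUST_12310, whose name begins only with tpa:, grouped the pools in another way. It stood at 1.42, −3.49, −4.73 and 1.27 in pools 1 to 4 in the OP row and 1.76, −3.84, −4.64 and 1.38 in the PYR row. Pools 1 and 4, which carried different dyes, were high, and pools 2 and 3 low, with no overlap. The probe next to it, CUST_12311, followed only in part, with pool means of 0.99, 0.20, −2.45 and 3.59. CUST_9459 (e3) had pool means of 1.70, −2.004, −2.45 and −3.94 and was high in pool 1 alone.

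**Figure D4:**
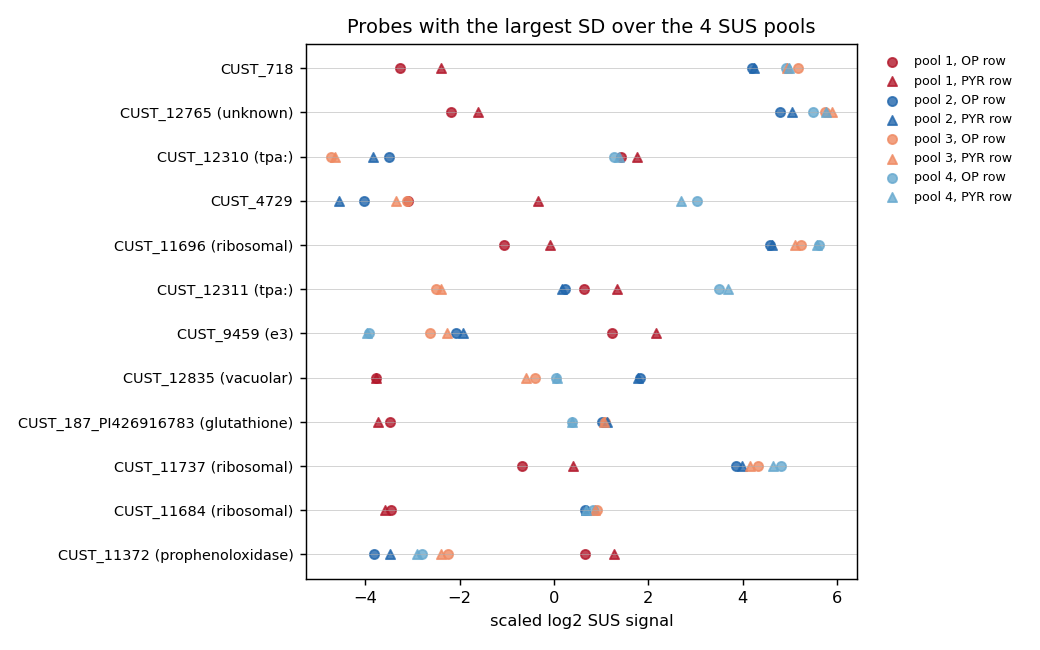
Scaled log2 signal of 12 of the most variable probes in each of the 8 SUS channels, grouped by pool. The arrays of a pool lie close together for nearly all of them, and most have 1 pool far from the other 3.

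At the other end, some probes hardly moved. The splicing factor probe CUST_11291 (pre-mrna-splicing) had an SD over pools of 0.02 at a mean of −3.16, CUST_10938 (neurofilament) 0.05 at −3.91 and the lysozyme probe CUST_10558 0.06 at −0.56. CUST_11268 (polymerase) had an SD of 0.06 and CUST_10204 (importin, a carrier of proteins into the nucleus) of 0.08. The control-gene probe for a histone, a DNA-packaging protein, had an SD over pools of 0.09 at a mean of −0.92.

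Pools that carried the same dye were compared with each other, which leaves the dye out. Each side of such a contrast is 1 pool on 2 arrays, so the limma p-values measure a pool difference against the spread of repeat arrays of all 4 pools and not against the spread between larvae. Between pools 1 and 3, both in Cy5, 603 of 3569 probes (16.9%) were called at adjusted p under 0.01 and more than 2-fold, 295 higher in pool 1 (8.27%) and 308 lower (8.63%). All 603 had the same sign in both rows, and 495 exceeded 2-fold in each row. The calls were made from both rows together, so the selection favours this and it is no independent support. Without the OP-row array of pool 1 the count was 803 (474 higher and 329 lower), of which 545 were called the same way in both fits. The difference between pools 1 and 3 correlated at r = 0.73 between the rows.

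P450 probes called between these pools were all higher in pool 1, and most muscle probes called were lower. Over all probes 8.27% were called higher in pool 1 and 8.63% lower. Of 17 P450 probes, 8 were higher in pool 1 than in pool 3 and 0 lower, with a median difference of 0.63 against 0.09 over all probes, and the same 8 were called without the OP-row array of pool 1. CUST_472_PI426916783 stood at −0.15 and 0.06 in pool 1 (OP row, PYR row), against −3.72 and −3.69 in pool 3, a difference of 3.66 ± 0.11 (SE, adjusted p = 0.000116 in limma). CUST_473_PI426916783 and CUST_474_PI426916783 differed by 3.64 ± 0.15 and 3.70 ± 0.12. Pool 3 was the low pool here, since pools 2 and 4 stood at 0.04 and −0.87 for CUST_472_PI426916783. The other 5, CUST_691_PI426916783, CUST_599_PI426916783, CUST_533_PI426916783, CUST_598_PI426916783 and CUST_547_PI426916783, differed by 1.28 to 2.45. Whether the 3 neighbouring probes share a transcript was not given.

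Of 21 cytoskeletal and muscle probes, 8 were lower in pool 1 than in pool 3 and 1 higher, the median difference was −0.70, and without the OP-row array of pool 1 the counts were again 8 and 1, with 8 of these 9 probes called the same way in both fits. With all arrays the 8 lower probes were 38.1% of the list, against 8.63% of all probes. Projectin and titin-like proteins are the giant elastic proteins of insect muscle, and troponin switches contraction on with calcium. The projectin probe CUST_11344 stood at 2.11 and 2.90 in pool 1, against 5.40 and 5.21 in pool 3, a difference of −2.80 ± 0.28 (adjusted p = 0.00151 in limma). The other projectin probe, CUST_11343, differed by −1.91 ± 0.11, the myosin probe CUST_10840 by −2.19 ± 0.21 and the titin-like probes CUST_12297 and CUST_12298 by −1.79 ± 0.16 and −1.76 ± 0.11. The troponin probe CUST_12484 was the one higher in pool 1, by 1.99 ± 0.13, while 3 other troponin probes were lower. The actin control-gene probe differed by −2.33 ± 0.46 (adjusted p = 0.0124 in limma) and was not called, but without the array it differed by −1.52 with adjusted p = 0.00136. Both differences are inexact because the probe was saturated on 3 arrays.

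Against 8.27% higher and 8.63% lower over all probes, ribosomal proteins had 0 probes higher and 8 lower (10.8%) of 74. Their median difference was −0.65 with all arrays and −0.12 without the OP-row array of pool 1, where 1 was higher and 7 lower, so the median shift of the list depended on that array. CUST_11696 differed by −5.75 ± 0.29 (adjusted p = 0.000363 in limma), CUST_11684 by −4.41 ± 0.11 and CUST_11737 by −4.38 ± 0.33. Without that array these 3 probes differed by −5.24, −4.45 and −3.80. Of 14 proteasome probes 2 were lower and 0 higher, and 3 and 0 without that array.

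Over all probes 8.27% were higher in pool 1 than in pool 3 and 8.63% lower. Trypsins and chymotrypsins gave 10 probes higher (12.3%) and 2 lower (2.47%) of 81. Their median difference was 0.48 with all arrays and 0.06 without the OP-row array of pool 1. CUST_12493 was the trypsin with the largest difference, at 3.51 with all arrays and 3.28 without that array. Of 94 GSTs, 14 were higher (14.9%) and 7 lower (7.45%). They were led by CUST_270_PI426916783 at 2.85 ± 0.19 and CUST_187_PI426916783 at −4.68 ± 0.13 (adjusted p = 0.000116 in limma). Of 15 carboxylesterases 3 were higher and 0 lower, and of 15 respiratory chain probes 4 were higher and 1 lower. Without the OP-row array of pool 1 these counts were 18 higher and 8 lower for GSTs, 3 and 1 for carboxylesterases and 5 and 1 for the respiratory chain.

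Among the 22 antimicrobial probes 4 were higher (18.2%) and 1 lower (4.55%) in pool 1, against 8.27% and 8.63% of all probes. The 4 were all gallerimycins, antifungal peptides of Lepidoptera: CUST_9730 differed by 2.24 ± 0.30, CUST_9731 by 2.11 ± 0.25, CUST_9728 by 1.77 ± 0.13 and CUST_9735 by 1.52 ± 0.15, with adjusted p from 0.000693 to 0.00348 in limma. CUST_9323, a diapausin, was the one lower, at −2.44 and −2.21 in pool 1, against −0.54 and −0.70 in pool 3. The cecropin probe CUST_8630, a membrane-lytic peptide, was at 2.26 in the OP row and −0.96 in the PYR row in pool 1, and at −2.80 and −2.48 in pool 3. It was not called (difference 3.29 ± 1.04, adjusted p = 0.0503 in limma). Of 6 hemolymph protein probes, 2 were higher, CUST_8182 (apolipophorin-iii) by 2.01 ± 0.29 and CUST_8173 (aplp_manse) by 1.39 ± 0.13. Without the OP-row array of pool 1 the antimicrobial list had 5 probes higher and 1 lower, the hemolymph list 3 higher and 0 lower, and CUST_8630 differed by 1.40 (adjusted p = 0.0116 in limma).

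The contrast of pools 2 and 4, both in Cy3, called fewer probes. Of 3569 probes, 299 (8.38%) were called, 120 higher in pool 2 (3.36%) and 179 lower (5.02%). All 299 had the same sign in both rows and 270 exceeded 2-fold in each row, which the selection again favours. Over all 3569 probes the difference correlated at r = 0.89 between the rows. The count was 470 without pool 1 and 51 without pool 3, and the cause was not tested.

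**Figure D5:**
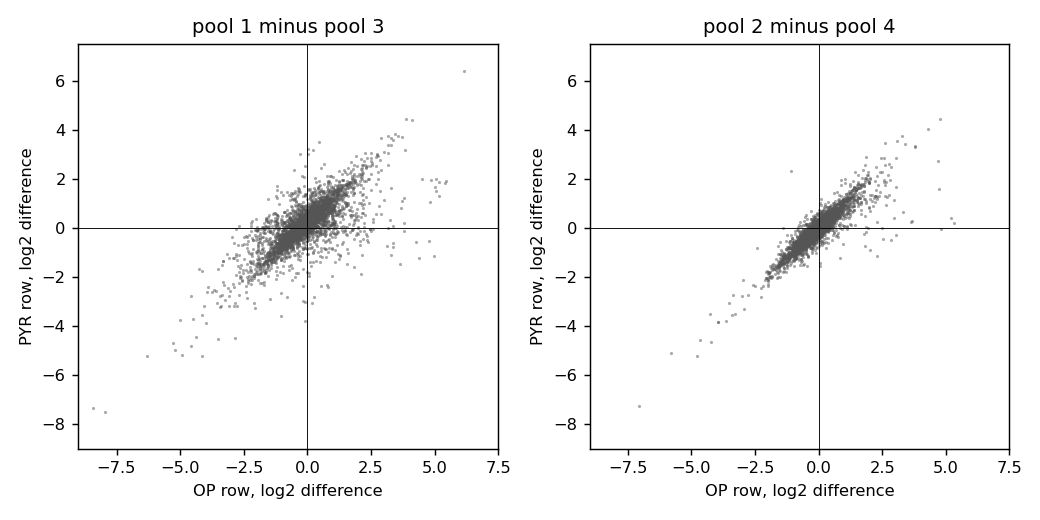
Log2 difference of pool 1 minus pool 3 (left, Cy5) and of pool 2 minus pool 4 (right, Cy3) for the 3569 probes, in the OP row (x axis) against the PYR row (y axis). The differences recur in the other row with r = 0.73 for pools 1 and 3 and r = 0.89 for pools 2 and 4.

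Prophenoloxidase probes were lower in pool 2. Of the 6 melanisation probes detected on all 8 arrays, of 36 on the array, 0 were higher and 4 lower. Over all probes 3.36% were higher and 5.02% lower. The 4 were all prophenoloxidases, and whether they share a transcript was not given. The median difference was −1.497 for the 6, against −0.08 over all probes. CUST_11360 averaged −0.28 in pool 2 and 1.18 in pool 4, a difference of −1.46 ± 0.10 (adjusted p = 0.00131 in limma), CUST_11358 differed by −1.54 ± 0.10, CUST_11366 by −1.64 ± 0.12 and CUST_11367 by −1.73 ± 0.15. In these 4 probes pool 4 was the highest of all pools. CUST_11372, the prophenoloxidase that was high in pool 1, differed by −0.79 ± 0.22 (adjusted p = 0.0488 in limma) and was not called.

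Over all probes 3.36% were called higher in pool 2 than in pool 4 and 5.02% lower. Of 8 juvenile hormone and ecdysone probes 2 were lower in pool 2 and 0 higher. The 2 were CUST_7954 (a jh-inducible name), by −1.19 ± 0.14, and CUST_10418 (juvenile), by −1.30 ± 0.20. Juvenile hormone and ecdysone set the timing of moults. Cuticle proteins had 1 higher and 2 lower of 13, and P450s 2 higher and 2 lower of 17. GSTs had 2 higher and 2 lower of 94 (2.13% each), and ribosomal proteins 0 higher and 2 lower (2.70%) of 74. The median ribosomal difference was −0.50, with 67 of 74 probes negative, against a median of −0.08 over all probes. Of the P450s, CUST_473_PI426916783 and CUST_474_PI426916783 were higher in pool 2 by 1.23 ± 0.15 and 1.35 ± 0.12, and CUST_598_PI426916783 and CUST_599_PI426916783 were lower, at −1.96 ± 0.16 and −1.92 ± 0.17. Trypsins and chymotrypsins had 1 probe called, higher in pool 2, although 70 of 81 had a positive difference with a median of 0.53.

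The named probe with the largest rise in pool 2 was CUST_12868 (vitellogenic). It stood at −0.49 and −0.47 in pool 2 (OP row, PYR row), against −5.27 and −4.92 in pool 4, a difference of 4.62 ± 0.21 (adjusted p = 0.000547 in limma). Pool 4 was the low pool, since pools 1 and 3 averaged −2.42 and −1.29. The same held for CUST_12246 (tensin-like), with pool means of −0.03, −0.37, −1.34 and −3.88 in pools 1 to 4 and a difference of 3.51 ± 0.16.

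In the other direction CUST_12310 differed by −4.99 ± 0.18 and CUST_9446 (duf233) by −3.89 ± 0.14, both lower in pool 2 than in pool 4. Among probes without a protein name CUST_4729 differed most, at −4.03 and −4.56 in pool 2, against 3.03 and 2.70 in pool 4, a difference of −7.17 ± 0.84 (adjusted p = 0.00454 in limma). It was not called without pool 3 (adjusted p = 0.0187 in limma). The arrays of pool 1 disagreed on that probe, at −3.09 in the OP row and −0.34 in the PYR row. CUST_5696 differed by −5.45 ± 0.19.

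Probes that were not well above background in a pool allow only a bound. It sets the mean of the pools that detected the probe against the higher of the dim pool's own signal and the lowest signal counted as detected on each array, on a quantile-normalized scale. CUST_7883, whose name begins with actin-, was at least 200.5-fold lower in pool 1 than in the other 3 pools, at −8.17 and −6.25 in pool 1, against 0.77 to 2.24 in pools 2 to 4. The neighbouring CUST_7882 was detected in pool 1 at 2.91 and 2.92, so the loss was not shared between these probes. CUST_860, an Sf9 EST, was at least 195-fold lower in pool 1, CUST_5038 at least 89.5-fold, CUST_9089 (cytochrome) at least 77.4-fold and the ribosomal probe CUST_11732 at least 44.2-fold.

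Missing only from pool 3 were, among others, CUST_12122 (stearoyl-coa), at least 22.2-fold lower, and the cuticular probe CUST_8989, at least 19.6-fold lower. Stearoyl-CoA desaturases put the double bond into fatty acids. CUST_8989 stood at −6.78 and −6.24 in pool 3, against −3.72 to −1.53 in the other pools. Missing only from pool 4 were CUST_1388, at least 14.5-fold lower, and CUST_12663 (ubiquitin), at least 7.85-fold lower.

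Detected in a single pool only were CUST_6462 in pool 1, at least 8.45-fold higher there, and the prophenoloxidase CUST_11370 in pool 1, at least 5.56-fold higher. CUST_6987 was detected only in pool 3, at least 10.1-fold higher, and CUST_11966 (short) only in pool 4, at least 7.39-fold higher. These counts were read against the 7033 probes that had a value on every array and were detected on at least 1. Of those, 4.66% were found only in pool 4, as were 7 of 101 P450s (6.93%), 2 of 182 GSTs (1.1%) and 2 of 58 carboxylesterases (3.45%). Missing only from pool 1 were 3.26% of all probes and 13 of 182 GSTs (7.14%), and missing only from pool 2 were 1.54% of all probes and 12 of 182 GSTs (6.59%). None of these shares was tested.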

How the data were processed

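RNA of SUS larvae was measured in 1 channel of 8 custom 2-colour Agilent arrays, with pools and dyes taken from the sample labels. The labels and the methods of the study give different amounts of total RNA for a labelling reaction. The authors scanned the arrays and made the deposited intensity values with Agilent Feature Extraction, named as version 10.5 in the submitters' processing notes and 10.7.1.1 in the file headers, whose steps were a background subtraction with a spatial correction and a dye normalization of each channel against the other on its array. The processed SUS signal therefore depends on the partner channel, and low signals are replaced by a substitute value. No transcript depth exists for arrays, and 8 arrays of 4 pools limit the precision. No probe sequence was used here.

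Control spots and spots marked as outliers were left out (136 to 649 per array), and replicate spots of a probe were averaged. A probe counted as detected where at least 50% of its unflagged spots were well above background. Signals were taken to log2 and scaled to the 75th percentile of each array, and arrays of a pool were averaged before the SD. Contrasts were fitted with limma 3.58.1 in R 4.3.3, with the array row as a covariate for the pools and Benjamini-Hochberg adjustment, and called at adjusted p under 0.01 and more than 2-fold, the thresholds of the study. Tables and plots were made in Python 3.11.15. The scripts were tested on simulated data. Nothing says how the pools were drawn from the culture, and the p-values of the pool contrasts measure the spread between repeat arrays.

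The pools, lists and rules were chosen with earlier results of these data known, and the lists were adapted to the leading words that the array gives as names. Probes named were the brightest, the leading probes of each list, the most and least variable, the largest of each contrast, the largest bounds of probes detected in or missing from 1 pool, and the ESTs of the study's text. Further list members in the contrasts were named after their values were seen. Pool numbers pair the arrays of the rows, since a number marks 1 RNA pool. Alternatives were other scalings, background corrections, detection filters and thresholds, the pool as a block, and leaving out each pool. The log ratios of resistant strains over SUS in the deposited tables were not used.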

Additional observations from a re-analysis of the deposited data

Results flagged for a closer look

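In a group of 4 pools, a pool was marked when its gap to the nearest other pool as a share of the group's range exceeded Dixon's 95% critical value, which chance passes in about 1 in 20 groups. Of 71 values examined, 8 passed. Over all 3569 probes detected on every array 205 passed (5.74%), and the pool farthest away was pool 1 in 110, pool 4 in 41, pool 3 in 33 and pool 2 in 21.

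Pool 2 had 496.5 outlier-flagged spots per array against 212 to 241 in the other pools (share 0.898). This mean came from 344 spots in the OP row and 649 in the PYR row, and pool 4 had 346 in the PYR row. The mark thus rested on the PYR-row array of pool 2. Pool 1 was low for 5 probes. These were the ribosomal probes CUST_11684 (0.949), CUST_11696 (0.838) and CUST_11737 (0.834), CUST_12765, named unknown (0.883), and the GST probe CUST_187_PI426916783 (0.852), at −3.52, −0.58, −0.14, −1.90 and −3.61 in pool 1. Pool 1 was high for the GST epsilon 3 probe CUST_264_PI426916783 (0.844), at 3.95 against 2.46 to 2.69. Pool 4 was high for the carboxylesterase probe CUST_42_PI426916783 (0.867), at −0.23 against −1.37 to −1.22. The probes among these were in part chosen for their spread over pools, so their marks are no independent finding.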

How the results depend on the processing

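The 603 calls between pools 1 and 3 became 183 without scaling, 344 with median signals, normexp and quantile normalization, 964 with probes detected on at least 4 of 8 arrays, and 373 to 418 when pool 4 or pool 2 was left out. The 299 calls between pools 2 and 4 became 53 without scaling, 131 with normexp, and 51 (without pool 3) to 470 (without pool 1). With no filter on dim probes both counts were 0, although 3011 and 2116 probes had an unadjusted p under 0.05, and the 31 named calls kept their direction but missed the threshold. The cause was not tested in any of these. Pools 1 and 3, or 2 and 4, cannot be compared with one of them left out. Probes detected on all arrays numbered 5433 with the positive-and-significant flag of the software, and 3668 to 4277 with a pool left out. Probes with an SD above 1 numbered 139 with normexp, 893 with probes detected on at least 4 of 8 arrays and 195 (without pool 1) to 403 with a pool left out. The median range within a contig was 0.32 with normexp. The mean correlation of repeat arrays was 0.98, and 0.978 to 0.995 with a pool left out, and 89 to 100 of the 100 brightest probes were shared across settings. The dye and row contrasts gave 0 calls in limma under every setting run. With the pool as a replicate block the row contrast also had 0 calls, and an unadjusted p under 0.05 was reached by 110 probes. Without pool 3, 5 of 17 named calls between pools 2 and 4 missed the threshold (CUST_4729, CUST_11112, CUST_11118, CUST_7665 and CUST_8587, adjusted p from 0.0106 to 0.0203). No named call changed its sign, but the median difference over all probes did: for pools 1 and 3 it was 0.09, and −0.09 without scaling, for pools 2 and 4 −0.08, and 0.02 with the percentile over all probes, for the dye 0.06, and −0.52 without scaling, and for the row −0.09, and 0.32 without scaling. Without the OP-row array of pool 1, cuticle probes had 0 higher and 2 lower calls between pools 1 and 3, against 1 and 0 with it, and the 1 serpin probe differed by 0.09 without it and −0.19 with it, not called in either. Arrays set a limit at low signal, where a probe not well above background gives only a bound, and at saturation, which 19 probes reached.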
